A study of Homo sapiens with 12 samples.

Results

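HL-60 cells, a human promyelocytic leukaemia line, were profiled by bulk messenger RNA sequencing, and 34 genes of cholesterol synthesis, uptake, storage and efflux were followed through 4 groups of 3 libraries. The genes were chosen by symbol. All 34 symbols were found in both deposited tables, which hold 60660 and 60662 genes with values. They comprise 8 enzymes from acetyl-CoA to the isoprenoid diphosphates, 12 enzymes of the sterol branch from squalene onwards, 5 regulators, 4 genes of sterol transport and storage, and 5 genes of the liver X receptor (LXR) axis. The first group was transduced with a JMJD3-expression vector and was compared with cells transduced with a control vector. The other comparison set JMJD3 knockout cells against parental cells. JMJD3, the product of KDM6B, removes methyl groups that Polycomb enzymes place on histone H3. All cells were HL-60 grown in the same serum-supplemented medium. The promoter that drives the transgene, the edited site, and whether the knockout cells are a clone or a pool are not given in the sources used here.

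Cells make cholesterol from acetyl-CoA through mevalonate, farnesyl diphosphate, squalene and lanosterol. Transcription of these enzymes is driven by the sterol regulatory element-binding proteins (SREBPs). These factors are held in the endoplasmic reticulum by the escort protein SCAP and the INSIG proteins while sterols are plentiful, and are cut free in the Golgi when sterols run low. LXRs are nuclear receptors that are activated by oxysterols and act in the opposite sense, raising the efflux pumps ABCA1 and ABCG1 and the ubiquitin ligase MYLIP, which removes lipoprotein receptors. In macrophages the LXR targets are well known for export of cholesterol to lipoproteins. Of the 34 genes, 22 were taken as SREBP targets and 3 (ABCA1, ABCG1 and MYLIP) as LXR targets, from general knowledge and not from these data.

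Sequences upstream of the genes are shown because 22 of the 34 genes fell on JMJD3 overexpression, and SREBPs act together with the factor NF-Y, which binds the letters CCAAT. RefSeq windows (GRCh38.p14) were found for 30 of the 34 genes, and the 250 bases before each annotated start were searched on both strands. ACAT2, FDFT1, SQLE and ABCG1 had no window. CCAAT was present before 21 of the 30 genes (70%), against 37% of all 27305 genes with a window. Among the SREBP targets with a window it was present in 16 of 19 (84.2%). Of the genes that fell on overexpression 16 of 19 held it (84.2%), against 5 of 11 (45.5%) of the others. A gene with several starts was counted where any of its windows held the letters. The sterol regulatory element TCACNCCAC was present before SREBF2 alone (3.33% of the 30 genes, against 1.09% of all genes). For LXR, only an exact DR4 repeat was searched, the half-site AGGTCA given again after 4 bases. It was found before none of the 30 genes and before 5 of all 27305 genes (0.0183%). LXR sites that differ from these letters were not searched and are not marked below, so its absence does not speak on whether a gene holds an LXR site. These shares describe letters in short windows and not binding.

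In the lines that follow, each window is written 5′ to 3′ on the strand of its gene, with CCAAT or its reverse complement in capitals, and for SREBF2 also the sterol regulatory element. HMGCS1 (chr5:43313413-43313662, minus strand), MVK (chr12:109573544-109573793, plus strand), NSDHL (chrX:152830813-152831062, plus strand) and INSIG1 (chr7:155297628-155297877, plus strand) are SREBP targets that fell on overexpression. MVK and NSDHL hold 5 boxes each. In NSDHL the boxes at 113 and 110 bases before the start lie on opposite strands and overlap. SREBF2 (chr22:41832855-41833104, plus strand) has the sterol element at 133 bases and CCAAT at 106 bases before its start. CYP51A1 (chr7:92134478-92134727, minus strand) and ABCA1 (chr9:104928156-104928405, minus strand) are shown because they had large opposite changes and hold no exact match to the searched letters in these 250 bases.
HMGCS1: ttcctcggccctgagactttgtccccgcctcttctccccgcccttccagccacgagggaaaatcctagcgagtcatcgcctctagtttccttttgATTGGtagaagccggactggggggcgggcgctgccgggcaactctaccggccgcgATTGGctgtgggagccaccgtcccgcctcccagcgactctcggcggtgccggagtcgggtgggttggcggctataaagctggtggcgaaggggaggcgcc
MVK: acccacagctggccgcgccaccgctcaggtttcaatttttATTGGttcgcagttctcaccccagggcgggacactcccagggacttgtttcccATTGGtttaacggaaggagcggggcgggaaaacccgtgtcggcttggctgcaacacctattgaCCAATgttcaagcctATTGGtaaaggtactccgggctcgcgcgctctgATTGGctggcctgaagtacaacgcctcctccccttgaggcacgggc
NSDHL: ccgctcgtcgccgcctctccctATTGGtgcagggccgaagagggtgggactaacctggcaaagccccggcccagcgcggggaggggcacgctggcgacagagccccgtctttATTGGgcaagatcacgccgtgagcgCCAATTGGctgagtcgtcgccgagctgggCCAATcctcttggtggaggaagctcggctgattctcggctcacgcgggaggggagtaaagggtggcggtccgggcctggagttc
INSIG1: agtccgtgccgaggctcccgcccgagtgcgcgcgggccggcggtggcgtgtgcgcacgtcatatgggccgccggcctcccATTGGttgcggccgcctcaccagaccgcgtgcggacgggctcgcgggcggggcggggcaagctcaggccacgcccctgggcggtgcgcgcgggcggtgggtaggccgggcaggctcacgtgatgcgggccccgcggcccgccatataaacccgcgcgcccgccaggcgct
SREBF2: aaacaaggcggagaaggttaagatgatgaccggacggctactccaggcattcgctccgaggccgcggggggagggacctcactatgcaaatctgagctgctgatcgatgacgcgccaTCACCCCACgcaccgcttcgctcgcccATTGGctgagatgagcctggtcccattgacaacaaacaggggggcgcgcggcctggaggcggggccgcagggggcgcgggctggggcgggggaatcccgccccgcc
CYP51A1: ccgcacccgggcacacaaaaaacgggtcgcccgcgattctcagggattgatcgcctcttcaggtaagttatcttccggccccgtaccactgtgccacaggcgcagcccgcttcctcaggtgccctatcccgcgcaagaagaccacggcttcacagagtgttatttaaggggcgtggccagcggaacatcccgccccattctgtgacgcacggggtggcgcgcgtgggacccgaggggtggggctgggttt
ABCA1: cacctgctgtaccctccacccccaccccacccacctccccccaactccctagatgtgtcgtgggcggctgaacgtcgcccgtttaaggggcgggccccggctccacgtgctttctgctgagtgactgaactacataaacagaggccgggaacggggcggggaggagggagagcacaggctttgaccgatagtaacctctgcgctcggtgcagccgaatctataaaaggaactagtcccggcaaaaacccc

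Libraries held 26861304 to 39031314 expected counts in the overexpression table and 28563546 to 43647715 in the knockout table. Levels are CPM, counts scaled to a common library size with edgeR's TMM factors within each table, unless another unit is named. KDM6B was at 98, 99.5 and 83.9 CPM in the overexpression libraries, against 35.2, 34.8 and 24.7 CPM in the vector libraries. Its level was 37.2, 45.2 and 36.9 CPM with knockout, against 56.6, 56.6 and 59.0 CPM in parental cells, so its transcript was still present in the cells labelled knockout. The library kit does not mark strand, so reads of overlapping genes on the opposite strand cannot be told apart, which touches ACAT2 (558 bases shared with TCP1), MVK (620 with MMAB), GGPS1 (870 with ARID4B), SREBF1 (1055 with RAI1), NPC2 (458 with ISCA2) and NR1H3 (607 with ACP2). NPC1 overlaps RMC1 over 25624 bases. The annotation also places AC000120.2 on the strand of CYP51A1 over 22645 bases, TBCE on that of GGPS1 over 15963 bases and SOD2 opposite ACAT2 over 2202 bases, under gene IDs for which no counts were used here. FDPS has 8 annotated pseudogenes. The third overexpression and vector libraries stood apart from the other two of their group (chi-square per gene 27.2 to 35.9, against 1.67 and 1.92 between replicates 1 and 2). Whether replicates are separate cultures is not stated in the labels, and the p-values then speak only for library-to-library spread. The promyelocyte markers used for the check (8 genes) summed to 9402 to 10725 CPM in the overexpression libraries and 18146 to 23184 CPM in the vector libraries, with ELANE at or near 0. Most of these sums came from MPO (8082 to 8982 and 15410 to 19293 CPM). MPO, PRTN3, AZU1, CTSG and MYC fell on overexpression, while CD33 and SPI1 did not pass (log2 fold changes 0.086 and 0.23). The 8 promyelocyte markers summed to 11352 to 12174 CPM in the knockout libraries and 12785 to 13250 CPM in the parental libraries. Of the 7 that were tested there, 4 fell and 2 rose with knockout, against 20.2% and 17.6% of all genes. CTSG and SPI1 were among those that fell (log2 fold changes -0.74 and -0.35), and MYC was among those that rose (0.38). The 16 markers of other cell types summed to 52.5 to 55.5 CPM in the overexpression libraries and 23.2 to 25.2 CPM in the vector libraries, mostly from PECAM1 (46.3 to 48.0 and 21.5 to 22.7 CPM). COL1A1 was at 3.42 to 4.26 and 0.405 to 0.599 CPM. In these groups KRT19 and ALB had counts only in the third libraries. The third overexpression library held 10 and 58 counts of them, and the third vector library 7 and 1. The source of these counts was not tested. The 16 markers summed to 15.8 to 16.5 CPM in the knockout libraries and 19.3 to 21.1 CPM in the parental libraries, with MS4A1, HBB and COL1A2 at 0 in every library. The part of these differences in the results on cholesterol genes was not tested, and in bulk RNA a change in the share of cells of a type and a change in RNA per cell cannot be told apart.

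With JMJD3 overexpression the cholesterol synthesis genes fell almost along the whole pathway, while the efflux pump ABCA1 rose. Of the 34 genes, 33 passed the expression filter, and 22 of them fell (adjusted p under 0.05), against 23.9% of all 14322 genes tested. Another 4 rose, against 26.4% of all genes: ABCA1, NPC2, SOAT1 and NR1H2. ABCA1 entered the test only through its overexpression libraries, and of the other 32 genes 3 rose. The median log2 fold change of the 33 genes was -0.96, where that of all genes was -0.0031. GGPS1, TM7SF2, LBR, INSIG2, SCAP, NPC1 and NR1H3 did not pass, and ABCG1 had too few counts to be tested. In 22 of the 33 genes every overexpression library lay below every vector library (28.3% of all genes), and in 5 every one lay above (30.6% of all genes). With replicates 1 and 2 only, 23 genes fell and 7 rose, and with those replicates summed 18 fell and 2 rose. Without the second overexpression library 2 rose, and without the third vector library 7 rose. With the replicate number as a block, 23 fell and 7 rose.

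**Figure D1:**
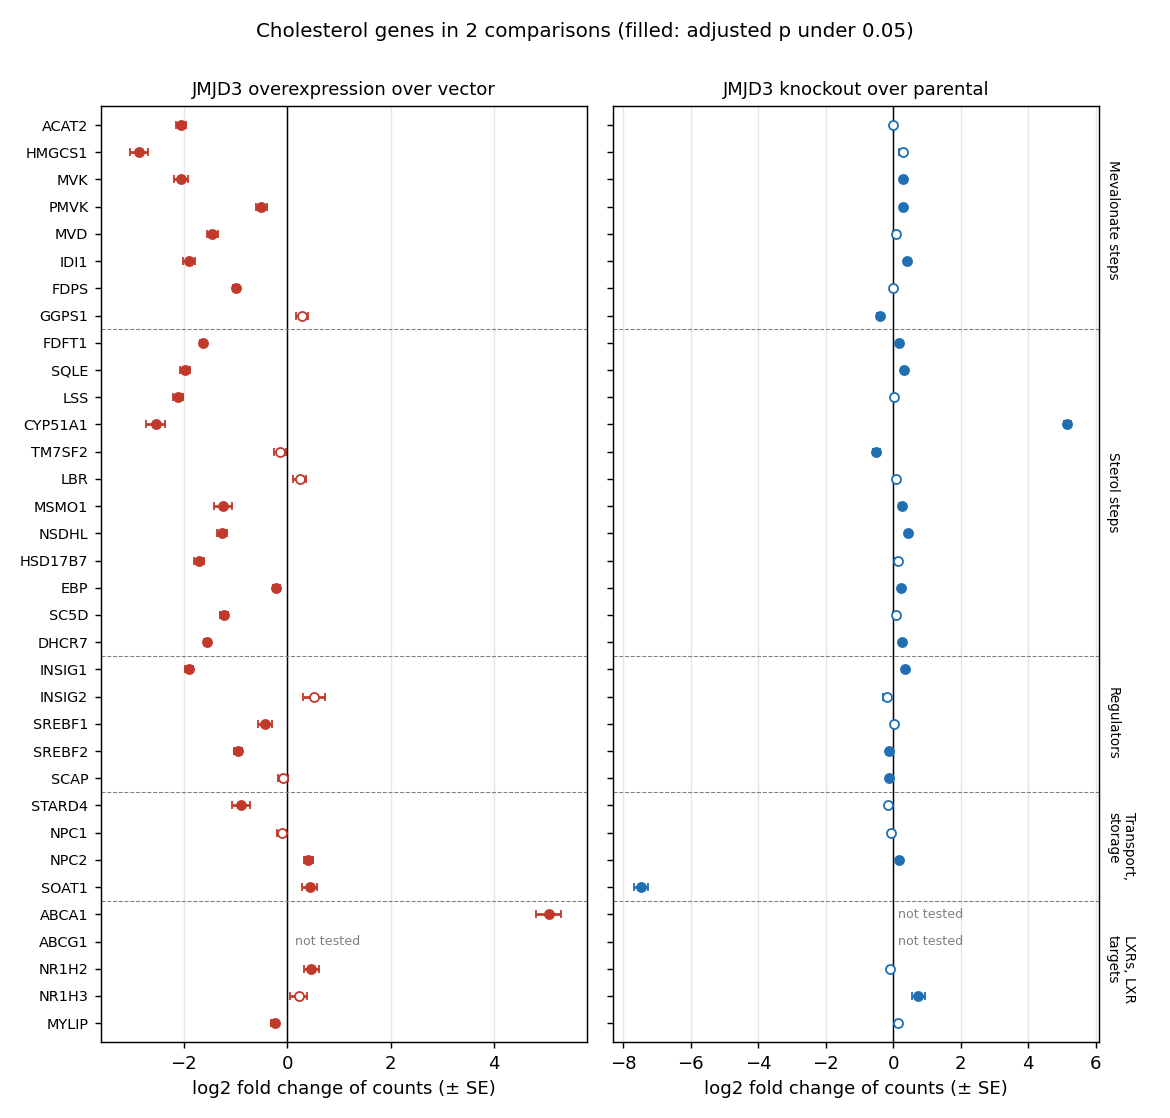
log2 fold changes (± SE, edgeR on counts, 3 libraries per group) of the 34 genes in pathway order, for JMJD3 overexpression over vector (left) and JMJD3 knockout over parental (right); filled points passed an adjusted p of 0.05, and the horizontal scales differ. On the left, 17 of the 20 synthesis enzymes lie below 0 as filled points and ABCA1 stands at 5.06, and on the right most points lie near 0, with CYP51A1 at 5.16 and SOAT1 at -7.46.

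Of the 8 enzymes that lead from acetyl-CoA to the isoprenoid diphosphates, 7 fell and none rose, against 23.9% and 26.4% of all genes. Their median log2 fold change was -1.68. The largest change was in HMGCS1, which condenses acetyl-CoA with acetoacetyl-CoA to HMG-CoA. HMGCS1 was at 21.5, 21.3 and 28.5 CPM in the overexpression libraries, against 152, 159 and 209 CPM in the vector libraries (log2 fold change -2.86 ± 0.17 (SE), adjusted p 1.61e-05). All 3 overexpression libraries lay far below the lowest vector library. ACAT2, which makes the acetoacetyl-CoA used by HMGCS1, averaged 26.9 ± 1.402 CPM in the overexpression libraries and 111 ± 13.04 CPM in the vector libraries (SD, n = 3 each; log2 fold change -2.05 ± 0.10 (SE), adjusted p 7.02e-06).

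The kinases and the decarboxylase that turn mevalonate into isopentenyl diphosphate fell to different extents. MVK, which adds the first phosphate to mevalonate, was at 7.86, 6.95 and 6.101 CPM in the overexpression libraries, against 32.2, 29.6 and 24.5 CPM in the vector libraries (log2 fold change -2.05 ± 0.14 (SE), adjusted p 3.08e-05). PMVK, which adds the next phosphate, was at 36.9, 38.7 and 31.7 CPM in the overexpression libraries, against 51.9, 53.99 and 45.95 CPM in the vector libraries (log2 fold change -0.50 ± 0.10 (SE), adjusted p 0.00482). The groups did not overlap for either gene, and the change of PMVK was the smaller. With replicates 1 and 2 summed, the PMVK call was lost (adjusted p 0.0507, in a range of 3.22e-16 to 0.0507). MVD, the decarboxylase that follows, averaged 10.8 ± 0.836 CPM in the overexpression libraries and 29.4 ± 3.06 CPM in the vector libraries (log2 fold change -1.45 ± 0.11 (SE), adjusted p 4.70e-05).

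IDI1, which isomerises isopentenyl diphosphate, was at 18.6, 19.3 and 20.5 CPM in the overexpression libraries, against 67.6, 65.97 and 85.3 CPM in the vector libraries (log2 fold change -1.91 ± 0.12 (SE), adjusted p 1.81e-05). FDPS, which builds farnesyl diphosphate at the branch point to sterols, averaged 178 ± 5.5 CPM in the overexpression libraries and 355 ± 8.02 CPM in the vector libraries, the smaller change of the pair (log2 fold change -1.0 ± 0.062 (SE), adjusted p 1.82e-05). GGPS1 takes farnesyl diphosphate away from sterols to geranylgeranyl diphosphate, and was the only enzyme of this stretch that did not fall. It was at 13.4, 12.3 and 15.4 CPM in the overexpression libraries, against 10.4, 11.6 and 11.7 CPM in the vector libraries (log2 fold change 0.28 ± 0.11 (SE), adjusted p 0.0699), with all overexpression libraries above the vector libraries. With the replicate block GGPS1 rose (log2 fold change 0.28, adjusted p 0.000695, in a range of 0.000695 to 0.197 over all alternatives).

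Of the 12 enzymes from squalene onwards, 10 fell and none rose, against 23.9% and 26.4% of all genes. Their median log2 fold change was -1.40. FDFT1, the squalene synthase that commits carbon to sterols, was at 105, 104 and 112 CPM in the overexpression libraries, against 336, 329 and 332 CPM in the vector libraries (log2 fold change -1.63 ± 0.065 (SE), adjusted p 2.94e-06). SQLE, the squalene epoxidase, was at 31.5, 32.6 and 37.4 CPM in the overexpression libraries, against 129, 128 and 142 CPM in the vector libraries (log2 fold change -1.97 ± 0.091 (SE), adjusted p 5.40e-06). LSS, which closes the rings to lanosterol, averaged 34.8 ± 1.82 CPM in the overexpression libraries and 150.4 ± 12.8 CPM in the vector libraries (log2 fold change -2.11 ± 0.090 (SE), adjusted p 4.23e-06). All 3 consecutive steps fell, and no overexpression library reached a vector library.

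The largest change of the sterol steps was in CYP51A1, the lanosterol demethylase (GRCh38 chromosome 7, 92112151 to 92134803, minus strand). CYP51A1 was at 1.71, 2.53 and 2.46 CPM in the overexpression libraries, against 11.99, 11.7 and 15.5 CPM in the vector libraries (log2 fold change -2.54 ± 0.18 (SE), adjusted p 3.81e-05). The values rest on 50, 85 and 102 counts in the overexpression libraries, against 304, 348 and 570 counts in the vector libraries. CYP51A1 has 3 annotated pseudogenes, which could share reads with it. The next step, reduction of the double bond left by CYP51A1, can be done by TM7SF2 or LBR, and neither passed. TM7SF2 was at 7.79, 6.44 and 6.22 CPM in the overexpression libraries, against 7.18, 7.69 and 7.599 CPM in the vector libraries (log2 fold change -0.14 ± 0.12 (SE), adjusted p 0.344), overlapping groups. LBR, which is also a protein of the inner nuclear membrane, was at 319.8, 321 and 404 CPM in the overexpression libraries, against 275, 273 and 337 CPM in the vector libraries (log2 fold change 0.24 ± 0.12 (SE), adjusted p 0.146). In LBR the third replicate was the highest of each group, and with the replicate block it rose (log2 fold change 0.24, adjusted p 1.80e-10), as it did without the third vector library (0.36, adjusted p 0.0257). Over all alternatives its adjusted p ran from 4.40e-13 to 0.399.

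The enzymes that strip the methyl groups followed. MSMO1, the methylsterol monooxygenase, was at 10.9, 11.4 and 14.4 CPM in the overexpression libraries, against 26.5, 24.2 and 35.7 CPM in the vector libraries (log2 fold change -1.24 ± 0.17 (SE), adjusted p 0.00086). NSDHL, the dehydrogenase of the same complex, was at 16.1, 16.6 and 14.8 CPM in the overexpression libraries, against 39.2, 40.1 and 34.1 CPM in the vector libraries (log2 fold change -1.26 ± 0.095 (SE), adjusted p 4.69e-05). HSD17B7, the ketoreductase of the complex, averaged 5.403 ± 0.505 CPM in the overexpression libraries and 17.7 ± 0.3003 CPM in the vector libraries (log2 fold change -1.71 ± 0.099 (SE), adjusted p 1.20e-05). All 3 fell without overlap between the groups. HSD17B7 has 2 annotated pseudogenes, which could also share reads.

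Of the last steps, EBP shifts a ring double bond, SC5D adds one and DHCR7 reduces one to give cholesterol. EBP was at 128, 124 and 123 CPM in the overexpression libraries, against 142, 149 and 142 CPM in the vector libraries (log2 fold change -0.21 ± 0.063 (SE), adjusted p 0.0251), the smallest fall among the called synthesis enzymes. Its call was lost under 9 of 16 alternatives. Among them were library-size and upper-quartile scaling (adjusted p 0.407 and 0.15). Others were fits without any 1 of the 3 overexpression libraries, or without the first or the second vector library (0.0506 to 0.109). Over all alternatives its adjusted p ran from 5.83e-08 to 0.407. SC5D averaged 14.4 ± 0.535 CPM in the overexpression libraries and 33.6 ± 1.73 CPM in the vector libraries (log2 fold change -1.22 ± 0.080 (SE), adjusted p 2.29e-05). DHCR7 was at 69.7, 68.8 and 65.7 CPM in the overexpression libraries, against 201, 203 and 194 CPM in the vector libraries (log2 fold change -1.55 ± 0.066 (SE), adjusted p 3.69e-06), a larger change than that of EBP.

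**Figure D2:**
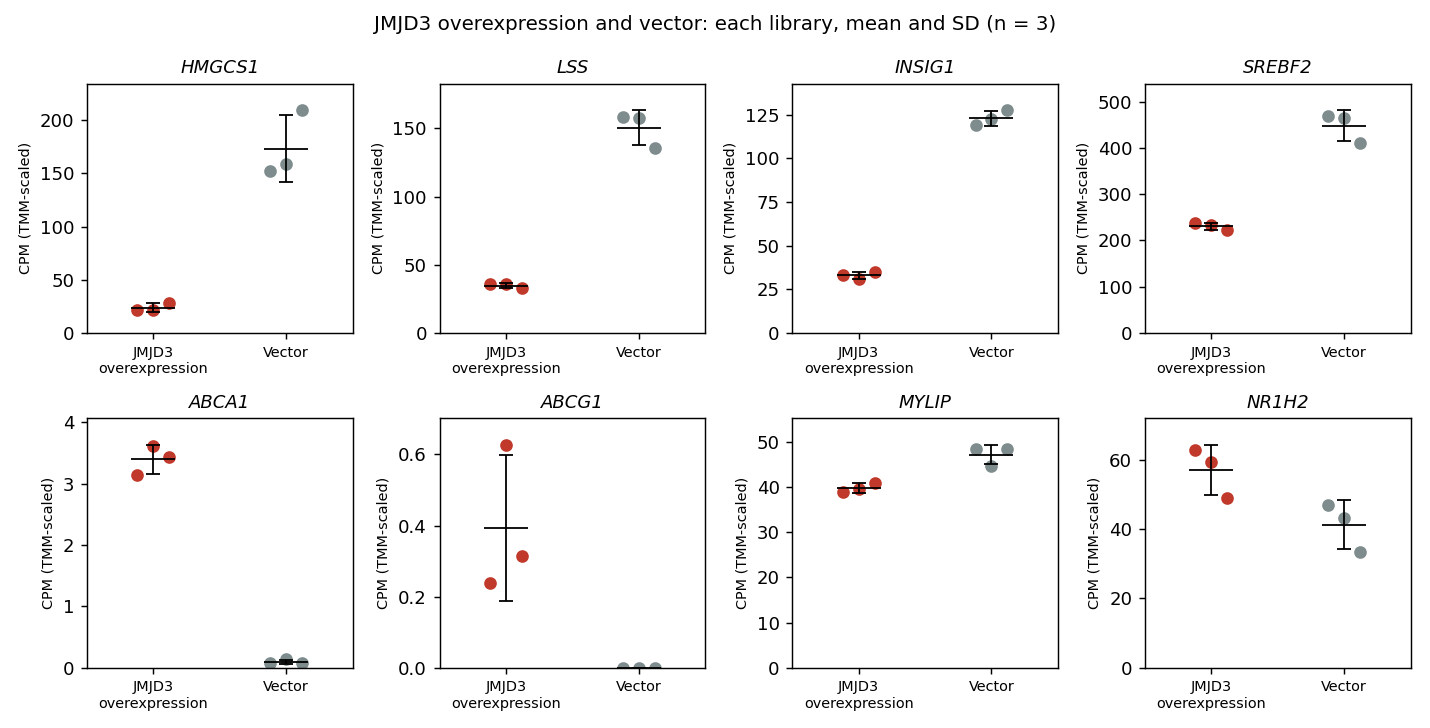
CPM (TMM-scaled, linear axis from 0) of 8 genes in each JMJD3 overexpression library and each vector library, with the mean and SD of 3 libraries as bars. HMGCS1, LSS, INSIG1, SREBF2 and MYLIP are lower in every overexpression library, and ABCA1, ABCG1 and NR1H2 are higher, with ABCG1 at 0 in all vector libraries.

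Among the 5 regulators, 3 fell and none rose, against 23.9% and 26.4% of all genes. INSIG1 retains SCAP in the endoplasmic reticulum and is itself an SREBP target. INSIG1 was at 33.2, 30.9 and 34.7 CPM in the overexpression libraries, against 119, 122 and 127 CPM in the vector libraries (log2 fold change -1.90 ± 0.076 (SE), adjusted p 2.94e-06). INSIG2, the paralog that does not depend on SREBP in the same way, was at 8.54, 10.3 and 13.98 CPM in the overexpression libraries, against 5.96, 7.76 and 9.23 CPM in the vector libraries (log2 fold change 0.51 ± 0.22 (SE), adjusted p 0.0843). INSIG1 was clearly lower with no overlap, while the INSIG2 groups overlapped. With the replicate block INSIG2 rose (0.52, adjusted p 1.59e-07), and it also passed without the first overexpression library (0.66, adjusted p 0.043) or the third vector library (0.69, adjusted p 0.0338). Over all alternatives its adjusted p ran from 1.59e-07 to 0.241.

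SREBF2 encodes the SREBP that drives cholesterol genes. SREBF2 was at 237, 233 and 223 CPM in the overexpression libraries, against 469, 465 and 410.2 CPM in the vector libraries (log2 fold change -0.96 ± 0.075 (SE), adjusted p 5.42e-05). SREBF1, whose product mainly drives fatty acid genes, was at 93.8, 89.6 and 75.5 CPM in the overexpression libraries, against 127, 128 and 95.1 CPM in the vector libraries (log2 fold change -0.43 ± 0.14 (SE), adjusted p 0.0304). The fall of SREBF2 was the larger and more even one. The SREBF1 call was lost under 7 of 16 alternatives, over which its adjusted p ran from 1.50e-16 to 0.144. Among the 7 were fits without the second or the third overexpression library or the first or second vector library (0.0622 to 0.0979). Library-size and upper-quartile scaling were also among them (0.095 and 0.0747). SCAP, the escort protein, was at 137, 131 and 124 CPM in the overexpression libraries, against 146, 147 and 121 CPM in the vector libraries (log2 fold change -0.08 ± 0.095 (SE), adjusted p 0.536), with overlapping groups, and its sign turned with library-size scaling (0.069) and upper-quartile scaling (0.012). With replicates 1 and 2 only, SCAP fell (-0.11, adjusted p 0.00118, in a range of 0.00118 to 0.931).

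Of the 4 transport and storage genes, 2 rose and 1 fell, against 26.4% and 23.9% of all genes. STARD4, which carries sterols between membranes and is an SREBP target, was at 5.36, 6.05 and 7.33 CPM in the overexpression libraries, against 10.7, 10.1 and 14.3 CPM in the vector libraries (log2 fold change -0.90 ± 0.17 (SE), adjusted p 0.00365). NPC2, the soluble lysosomal protein that hands cholesterol to NPC1, was at 25.1, 24.2 and 21.97 CPM in the overexpression libraries, against 18.02, 18.6 and 17.2 CPM in the vector libraries (log2 fold change 0.40 ± 0.086 (SE), adjusted p 0.00565), and its call was lost with replicates 1 and 2 summed (adjusted p 0.0798, in a range of 1.16e-08 to 0.0798). NPC1, the membrane partner, was at 37.4, 35.4 and 41.7 CPM in the overexpression libraries, against 40.7, 37.9 and 44.3 CPM in the vector libraries (log2 fold change -0.10 ± 0.093 (SE), adjusted p 0.393). STARD4 and NPC2 did not overlap between the groups, and NPC1 did. With the replicate block NPC1 fell (-0.10, adjusted p 0.0315, in a range of 0.0315 to 0.899), while with library-size scaling its value was 0.040. SOAT1, which esterifies cholesterol for storage in droplets, was at 24.5, 25.2 and 30.2 CPM in the overexpression libraries, against 18.9, 16.9 and 23.3 CPM in the vector libraries (log2 fold change 0.43 ± 0.14 (SE), adjusted p 0.0338). Its call was lost without the second or the third overexpression library or the first or second vector library (adjusted p 0.0589 to 0.111) and with replicates 1 and 2 summed (0.142), in a range of 4.65e-10 to 0.142 over all alternatives.

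The 3 LXR targets did not move alike. ABCA1, the pump that loads cholesterol onto lipoproteins, was at 3.14, 3.61 and 3.42 CPM in the overexpression libraries, against 0.0789, 0.135 and 0.0817 CPM in the vector libraries (log2 fold change 5.06 ± 0.24 (SE), adjusted p 5.40e-06). The values rest on 92, 121 and 142 counts in the overexpression libraries, against 2, 4 and 3 counts in the vector libraries, and ABCA1 passed the expression filter only through the overexpression group, so a difference was built into its entering the test. With no filter its log2 fold change was 5.06 (adjusted p 1.24e-41). Over the alternatives on counts it ran from 4.92 to 5.33, and on log2(FPKM + 1), a scale that understates changes of low values, it was 0.46 (adjusted p 0.00149 by limma, in a range of 1.24e-41 to 0.00149). ABCG1, the other efflux pump, had 7, 21 and 13 counts in the overexpression libraries, against 0, 0 and 0 counts in the vector libraries. Both pumps were thus scarce in vector cells. Pooled over the overexpression group, ABCG1 was at 0.413 CPM, 13.3-fold above a floor of 3 counts over the vector group (0.0312 CPM). That ratio takes the overexpression counts as exact and leaves out the spread between their libraries, so it is not a lower bound. The authors' deposited table marks both pumps as higher, with log2 fold changes of 2.1 for ABCA1 and 1.34 for ABCG1. The fit behind these marks is not described in the sources used here. MYLIP was at 38.9, 39.6 and 40.9 CPM in the overexpression libraries, against 48.4, 44.7 and 48.4 CPM in the vector libraries (log2 fold change -0.24 ± 0.070 (SE), adjusted p 0.0204), so it was lower where the pumps were higher. The MYLIP call was lost under 8 of 16 alternatives, over which its adjusted p ran from 1.12e-06 to 0.3. Among the 8 were fits without the first or second overexpression library or the first vector library (0.0753 to 0.0826). Library-size and upper-quartile scaling were also among them (0.3 and 0.0877).

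Of the receptors themselves, NR1H2 rose and NR1H3 did not pass. NR1H2, which encodes LXR beta, was at 62.7, 59.5 and 48.97 CPM in the overexpression libraries, against 47.1, 43.3 and 33.4 CPM in the vector libraries (log2 fold change 0.47 ± 0.15 (SE), adjusted p 0.0304). Its call was lost under 4 of 16 alternatives, over which its adjusted p ran from 1.51e-15 to 0.11. Among the 4 were fits without the first or second overexpression library or the second vector library (0.0546 to 0.0946). NR1H3, which encodes LXR alpha, was at 2.46, 1.94 and 2.39 CPM in the overexpression libraries, against 2.09, 1.99 and 1.74 CPM in the vector libraries (log2 fold change 0.23 ± 0.16 (SE), adjusted p 0.284). The NR1H3 groups overlapped.

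Set by their regulator, 20 of the 22 SREBP targets fell on overexpression and none rose, against 23.9% and 26.4% of all genes. Their median log2 fold change was -1.50. TM7SF2 and NPC1 were the SREBP targets that did not pass. Of the LXR targets, ABCA1 rose, MYLIP fell, and ABCG1 had counts in the overexpression libraries and none in the vector libraries. Scaling by library size alone moved the median of all genes to 0.14 and left 19 of the genes lower and 7 higher, and upper-quartile scaling also left 19 lower. The authors' deposited table marks 15 of the 34 genes as lower and 2 as higher, but its mark did not follow the false discovery rate alone. FDPS (log2 fold change -0.98, deposited false discovery rate 7.29e-21), SREBF2 (-0.95, 4.42e-18) and NPC2 (0.38, 0.00322) were unmarked there.

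With JMJD3 knockout a part of the synthesis genes was modestly higher, and CYP51A1 and SOAT1 changed by far the most. Of the 34 genes, 32 were tested, and 13 rose, against 17.6% of all 14186 genes tested. Another 5 fell (GGPS1, TM7SF2, SREBF2, SCAP and SOAT1), against 20.2% of all genes, and 14 did not pass. SOAT1 entered the test only through its parental libraries, and of the other 31 genes 4 fell. Without the third knockout or the third parental library 3 fell. The median log2 fold change of the 32 genes was 0.11, where that of all genes was -0.0022. In 14 of the 32 genes every knockout library lay above every parental library (23.6% of all genes tested), and in 7 every one lay below (25.3%). ABCA1 and ABCG1 had too few counts to be tested.

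CYP51A1 was at 76.5, 71.5 and 78.6 CPM in the JMJD3 knockout libraries, against 2.001, 1.75 and 2.49 CPM in the parental libraries (log2 fold change 5.16 ± 0.093 (SE), adjusted p 2.64e-16), a 35.8-fold difference. It rested on 2229, 2426 and 2239 counts in the JMJD3 knockout libraries, against 74, 61 and 110 counts in the parental libraries. Scaled by library total, so that the tables can be set side by side, CYP51A1 stood at 75.2 ± 3.29 CPM in knockout cells and 2.09 ± 0.39 CPM in parental cells, and at 2.35 ± 0.49 CPM in overexpressing cells and 12.5 ± 2.22 CPM in vector cells (SD, n = 3 each). The parental level was thus below that of the vector cells although both are HL-60, and the tables were processed separately. The antisense gene CYP51A1-AS1 had 0 counts in every library. Among the 3 nearest expressed genes on each side of CYP51A1, GATAD1 fell with knockout (log2 fold change -0.34) and AKAP9, KRIT1, ANKIB1, MTERF1 and FZD1 did not pass. AKAP9 ends 1478 bases from CYP51A1 and was at -0.23 on the log2 scale (adjusted p 0.0588). These neighbours were looked at after the CYP51A1 values were seen.

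SOAT1 (GRCh38 chromosome 1, 179293714 to 179358680, plus strand) went the opposite way. It was at 0.0687, 0.0589 and 0.316 CPM in the JMJD3 knockout libraries, against 25.9, 25.2 and 26.1 CPM in the parental libraries (log2 fold change -7.46 ± 0.20 (SE), adjusted p 1.29e-13), a 176-fold difference. It rested on 2, 2 and 9 counts in the JMJD3 knockout libraries, against 958, 877 and 1150 counts in the parental libraries, so SOAT1 transcript was nearly absent from every knockout library. With 13 knockout counts in all, 9 of them in the third library, the size is loosely set: the log2 fold change was -8.59 without the third knockout library, -7.16 without the first and -7.04 without the second, and -3.19 on log2(FPKM + 1), a scale that understates changes of low values. SOAT1 passed the expression filter only through the parental group, so a difference was built into its entering the test, and with no filter its log2 fold change was -7.47. The nearest expressed genes, again looked at after these values were seen, moved little: FAM20B rose by 0.15 and TOR1AIP2 fell by 0.17 on the log2 scale, and ABL2, TOR3A, TOR1AIP1 and HNRNPA1P54 did not pass. In the authors' deposited table CYP51A1 is marked as higher (log2 fold change 5.14) and SOAT1 and TM7SF2 as lower (-6.11 and -0.60). No other of the 34 genes is marked as significant, but the mark did not follow the false discovery rate alone. NSDHL (0.46, deposited false discovery rate 3.13e-09), INSIG1 (0.40, 4.28e-08), IDI1 (0.44, 2.86e-07) and GGPS1 (-0.32, 0.00025) were unmarked there.

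**Figure D3:**
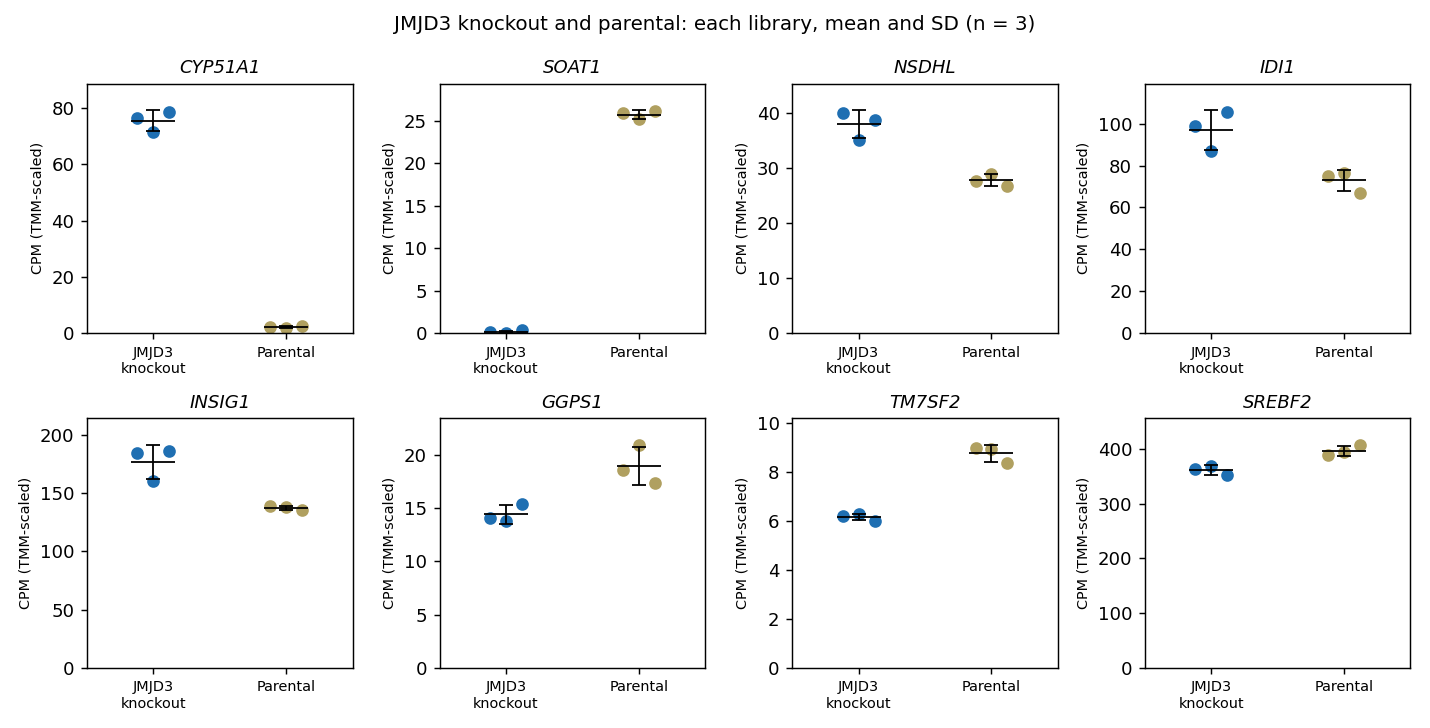
CPM (TMM-scaled, linear axis from 0) of 8 genes in each JMJD3 knockout library and each parental library, with the mean and SD of 3 libraries as bars. CYP51A1 is at 71.5 to 78.6 CPM with knockout and 1.75 to 2.49 CPM in parental cells, SOAT1 is near 0 with knockout, NSDHL, IDI1 and INSIG1 are modestly higher, and GGPS1, TM7SF2 and SREBF2 are lower in every knockout library.

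Of the 8 enzymes up to the isoprenoid diphosphates, 3 rose and 1 fell with knockout (median 0.18), against 17.6% and 20.2% of all genes. The largest change of the stretch was in IDI1, at 98.8, 86.8 and 105 CPM in the JMJD3 knockout libraries, against 75.1, 76.6 and 67.04 CPM in the parental libraries (log2 fold change 0.41 ± 0.072 (SE), adjusted p 0.00078). MVK was at 32.7, 26.9 and 30.2 CPM in the JMJD3 knockout libraries, against 24.1, 25.4 and 23.2 CPM in the parental libraries (log2 fold change 0.30 ± 0.074 (SE), adjusted p 0.00395), and its call was lost on log2(FPKM + 1) values (adjusted p 0.0635 by limma, in a range of 0.000405 to 0.0635). PMVK was at 61.9, 56.1 and 59.99 CPM in the JMJD3 knockout libraries, against 47.03, 52.97 and 44.3 CPM in the parental libraries (log2 fold change 0.30 ± 0.065 (SE), adjusted p 0.00152). In these 3 genes every knockout library lay above every parental library. GGPS1 was at 14.1, 13.8 and 15.4 CPM in the JMJD3 knockout libraries, against 18.6, 20.9 and 17.3 CPM in the parental libraries (log2 fold change -0.39 ± 0.085 (SE), adjusted p 0.00171), the one enzyme of the stretch that fell. HMGCS1 was at 233, 185 and 231 CPM in the JMJD3 knockout libraries, against 191, 177 and 167 CPM in the parental libraries (log2 fold change 0.28 ± 0.10 (SE), adjusted p 0.0713), with the second knockout library inside the parental range. Without that library HMGCS1 passed (0.39, adjusted p 3.89e-05, in a range of 4.70e-07 to 0.188 over all alternatives). ACAT2, MVD and FDPS did not pass, with log2 fold changes between 0.00 and 0.07.

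Of the 12 sterol enzymes, 7 rose and 1 fell (median 0.20), against 17.6% and 20.2% of all genes. FDFT1 was at 356, 327 and 357 CPM in the JMJD3 knockout libraries, against 309.7, 312 and 304 CPM in the parental libraries (log2 fold change 0.17 ± 0.044 (SE), adjusted p 0.00731). SQLE was at 151, 129 and 148 CPM in the JMJD3 knockout libraries, against 116, 112 and 117 CPM in the parental libraries (log2 fold change 0.31 ± 0.055 (SE), adjusted p 0.000359). NSDHL, with the largest rise after CYP51A1 in this stretch, was at 39.9, 35.1 and 38.7 CPM in the JMJD3 knockout libraries, against 27.6, 28.9 and 26.7 CPM in the parental libraries (log2 fold change 0.45 ± 0.064 (SE), adjusted p 3.65e-05). None of the 3 overlapped between the groups. MSMO1 was at 52.6, 47.6 and 58.3 CPM in the JMJD3 knockout libraries, against 45.1, 44.7 and 43.5 CPM in the parental libraries (log2 fold change 0.25 ± 0.065 (SE), adjusted p 0.0065), and its call was lost without the third knockout library (adjusted p 0.0539, in a range of 0.000544 to 0.0539). EBP was at 156, 133 and 150.1 CPM in the JMJD3 knockout libraries, against 126, 133 and 117 CPM in the parental libraries (log2 fold change 0.23 ± 0.061 (SE), adjusted p 0.0087). DHCR7 was at 171, 149 and 159.6 CPM in the JMJD3 knockout libraries, against 137, 129 and 132 CPM in the parental libraries (log2 fold change 0.27 ± 0.051 (SE), adjusted p 0.000505). In these 3 genes the second knockout library was the lowest of its group. TM7SF2 was the enzyme that fell, at 6.18, 6.27 and 6.01 CPM in the JMJD3 knockout libraries, against 8.98, 8.92 and 8.37 CPM in the parental libraries (log2 fold change -0.51 ± 0.10 (SE), adjusted p 0.000933). LSS, LBR, HSD17B7 and SC5D did not pass, with log2 fold changes from 0.01 to 0.14. SC5D passed without the second knockout library (0.19, adjusted p 0.0229, in a range of 0.0229 to 0.819).

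Of the regulators, INSIG1 rose and SREBF2 and SCAP fell slightly with knockout. INSIG1 was at 184, 160.2 and 186 CPM in the JMJD3 knockout libraries, against 139, 138 and 136 CPM in the parental libraries (log2 fold change 0.36 ± 0.053 (SE), adjusted p 4.85e-05), with no overlap. SREBF2 was at 363, 369.6 and 352 CPM in the JMJD3 knockout libraries, against 388, 394 and 407 CPM in the parental libraries (log2 fold change -0.13 ± 0.041 (SE), adjusted p 0.0192), and SCAP was at 95.3, 102 and 94.8 CPM in the JMJD3 knockout libraries, against 106, 107 and 109 CPM in the parental libraries (log2 fold change -0.14 ± 0.045 (SE), adjusted p 0.0228). Both falls were small, although the libraries did not overlap. The SREBF2 call was lost under 4 of 14 alternatives, among them those without the third knockout or the third parental library (adjusted p 0.0983 and 0.105, in a range of 0.0128 to 0.172). The SCAP call was lost under 7 of 14 alternatives, among them those without the first or the third knockout library or any 1 parental library (0.0515 to 0.103, in a range of 0.011 to 0.457). INSIG2 was at 8.55, 10.6 and 10.6 CPM in the JMJD3 knockout libraries, against 12.2, 11.2 and 10.6 CPM in the parental libraries (log2 fold change -0.19 ± 0.10 (SE), adjusted p 0.167). SREBF1 was at 90.1, 105 and 99.2 CPM in the JMJD3 knockout libraries, against 94.8, 92.5 and 103 CPM in the parental libraries (log2 fold change 0.02 ± 0.057 (SE), adjusted p 0.821). Neither INSIG2 nor SREBF1 passed, and both overlapped.

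Apart from SOAT1, NPC2 and NR1H3 rose with knockout, and the other transport and LXR genes did not pass or were too low to test. NPC2 averaged 24.7 ± 0.887 CPM in the JMJD3 knockout libraries and 21.8 ± 1.202 CPM in the parental libraries (log2 fold change 0.18 ± 0.067 (SE), adjusted p 0.0443). Its call was lost under 9 of 14 alternatives, over which its adjusted p ran from 0.0221 to 0.157. Among the 9 were fits without the first or the third knockout library or the first or second parental library (0.0929 to 0.143). DESeq2 (0.097) and library-size scaling (0.0607) were also among them. STARD4 and NPC1 did not pass, at -0.15 and -0.06 on the log2 scale. NR1H3 was at 2.3, 2.504 and 2.002 CPM in the JMJD3 knockout libraries, against 1.27, 1.43 and 1.36 CPM in the parental libraries (log2 fold change 0.75 ± 0.20 (SE), adjusted p 0.00769), a rise at a low level, and its call was lost on log2(FPKM + 1) values (adjusted p 0.169 by limma, in a range of 0.00743 to 0.169). NR1H2 was at 38.97, 39.1 and 38.6 CPM in the JMJD3 knockout libraries, against 41.5, 41.8 and 41.7 CPM in the parental libraries (log2 fold change -0.10 ± 0.052 (SE), adjusted p 0.147). MYLIP was at 37.1, 39.1 and 37.9 CPM in the JMJD3 knockout libraries, against 36.4, 31.9 and 35.3 CPM in the parental libraries (log2 fold change 0.14 ± 0.062 (SE), adjusted p 0.0895). NR1H2 and MYLIP did not pass although their libraries did not overlap. ABCA1 had 4, 8 and 7 counts in the JMJD3 knockout libraries, against 2, 2 and 5 counts in the parental libraries, and ABCG1 had 4, 7 and 5 counts in the JMJD3 knockout libraries, against 4, 0 and 1 counts in the parental libraries, so both pumps were close to undetected in these cells.

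Of the 22 SREBP targets, 11 rose and 2 fell with knockout, against 17.6% and 20.2% of all genes tested. Their median log2 fold change was 0.20, and 9 did not pass. Apart from CYP51A1, the SREBP targets that rose did so by 0.17 to 0.45 on the log2 scale. In the table of the other comparison the same 22 genes had a median of -1.50.

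Of the 32 genes tested in both comparisons, 12 passed in both with opposite directions, against 17% of the 13721 genes tested in both. MVK, PMVK, IDI1, FDFT1, SQLE, CYP51A1, MSMO1, NSDHL, EBP, DHCR7 and INSIG1 fell on overexpression and rose with knockout, which was 11 of 32 genes against 8.24% of all genes. SOAT1, which entered the knockout test only through its parental libraries, rose on overexpression and fell with knockout. SREBF2 fell in both comparisons and NPC2 rose in both, against 6.18% of all genes that passed in the same direction. In all of the 11 genes but CYP51A1 and EBP the change was larger on overexpression. FDFT1 had a log2 fold change of -1.63 on overexpression and 0.17 with knockout, SQLE -1.97 and 0.31, INSIG1 -1.90 and 0.36. CYP51A1 stood at -2.54 and 5.16. EBP stood at -0.21 and 0.23. ACAT2, HMGCS1, MVD, FDPS, LSS, HSD17B7, SC5D, SREBF1, STARD4 and MYLIP fell on overexpression and did not pass with knockout. Whether the comparisons differ in these genes was not tested.

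**Figure D4:**
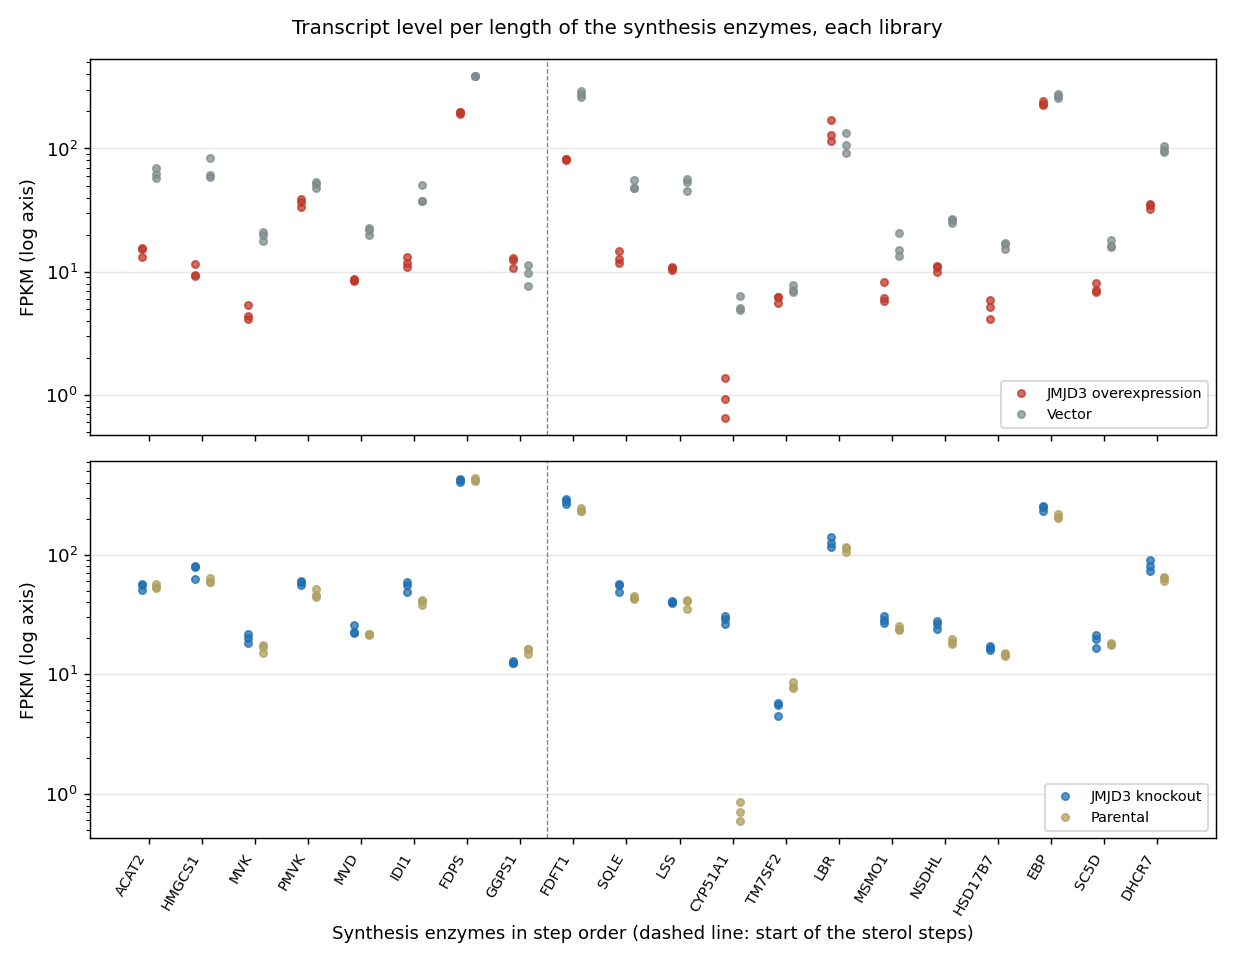
Deposited FPKM (log axis) of the 20 synthesis enzymes in pathway order, for JMJD3 overexpression and vector libraries (top) and JMJD3 knockout and parental libraries (bottom), one point per library. FDPS has the highest mean in vector, knockout and parental libraries and EBP in overexpression libraries. CYP51A1 has the lowest mean in overexpression, vector and parental libraries (0.98, 5.43 and 0.72 FPKM) but 28.6 FPKM in knockout libraries.

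Per transcript length (deposited FPKM), the enzymes spanned a wide range. FDPS averaged 196 ± 3.79 FPKM in the overexpression libraries and 387 ± 3.11 FPKM in the vector libraries (SD, n = 3 each). It averaged 418 ± 14.1 FPKM in the JMJD3 knockout libraries and 422 ± 10.8 FPKM in the parental libraries. EBP averaged 232 ± 9.22 FPKM in the overexpression libraries and 267 ± 8.72 FPKM in the vector libraries, so EBP stood above FDPS in overexpressing cells and below it in the other groups. FDFT1 averaged 81.6 ± 0.856 FPKM in the overexpression libraries and 277 ± 16.4 FPKM in the vector libraries, below EBP in overexpressing cells but close to it in vector cells. At the low end, CYP51A1 averaged 0.9797 ± 0.361 FPKM in the overexpression libraries and 5.43 ± 0.773 FPKM in the vector libraries, and 28.6 ± 2.34 FPKM in the JMJD3 knockout libraries and 0.716 ± 0.1302 FPKM in the parental libraries. It was thus the scarcest enzyme transcript of the pathway in 3 of the 4 groups, and TM7SF2 was in knockout cells. ABCA1 lay lower still in the overexpression table, at 0.403 ± 0.0914 FPKM in the overexpression libraries and 0.0162 ± 0.0105 FPKM in the vector libraries.

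Other genes of lipid metabolism were read from lists drawn up beside the 34 genes, and log2 fold changes ± SE stand in parentheses. The counts of each list are read against all genes tested, of which 26.4% rose and 23.9% fell on overexpression, and 17.6% rose and 20.2% fell with knockout. Of 12 fatty acid genes under SREBP control, 8 fell and 1 rose on overexpression (median -0.55), against 23.9% and 26.4% of all genes. FADS2, a desaturase of polyunsaturated fatty acids, fell most clearly (-2.64 ± 0.11), followed by the stearoyl desaturase SCD (-1.94 ± 0.093) and FADS1 (-1.59 ± 0.083). With knockout 6 of the 12 fell and 1 rose (median -0.12), against 20.2% and 17.6% of all genes. FADS1 was at 5.29, 5.71 and 6.08 CPM in the JMJD3 knockout libraries, against 107, 100.01 and 109.8 CPM in the parental libraries (-4.21 ± 0.069), FADS2 fell by 1.22 and the elongase ELOVL6 fell by 0.67 on the log2 scale. FADS1 and FADS2 thus fell in both comparisons.

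Of 9 other genes listed as LXR targets, 4 passed the filter, and all 4 rose on overexpression (median 0.99). APOC1, APOC2, SMPDL3A, TTC39B and ABCG4 were too low to test. The list is not complete. SREBF1, SCD and FASN were grouped elsewhere and not counted as LXR targets, and they fell (-0.43 ± 0.14, -1.94 ± 0.093 and -1.06 ± 0.087). PLTP, the phospholipid transfer protein, was at 5.98, 5.81 and 5.57 CPM in the overexpression libraries, against 0.394, 0.439 and 0.463 CPM in the vector libraries (3.72 ± 0.15, adjusted p 2.94e-06). LPCAT3, which puts polyunsaturated chains into phospholipids, was at 75.8, 75.01 and 74.6 CPM in the overexpression libraries, against 46.7, 49.5 and 47.4 CPM in the vector libraries (0.65 ± 0.065). Neither gene overlapped between the groups, so both moved in the direction of ABCA1 and not of MYLIP. With knockout, 2 of the 4 rose, LPCAT3 (0.42 ± 0.059) and EEPD1 (0.56 ± 0.057), a nuclease-family protein that promotes efflux, and none fell. The EEPD1 call with knockout was lost on log2(FPKM + 1) values (adjusted p 0.0775 by limma, in a range of 6.15e-14 to 0.0775). LPCAT3 and EEPD1 were therefore higher in both comparisons.

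Of 14 genes of SREBP processing and sterol-regulated degradation, 4 rose and 4 fell on overexpression, close to the 26.4% and 23.9% of all genes. VCP, the segregase of that degradation, fell (-0.65 ± 0.063), while ERLIN2, a scaffold of the degradation complex, rose (0.77 ± 0.092). With knockout 1 rose, VCP (0.34 ± 0.048), and 3 fell, among them ERLIN1 (-0.29 ± 0.043) and the conjugating enzyme UBE2G2 (-0.18 ± 0.042), against 17.6% of all genes that rose and 20.2% that fell. Of 14 genes on other branches from farnesyl diphosphate, 7 fell and 1 rose on overexpression (all genes 23.9% and 26.4%), with PDSS1 (-0.65 ± 0.092), which makes the ubiquinone side chain, NUS1 (-0.47 ± 0.084), a subunit of the dolichol synthase, and TRIT1 (-0.39 ± 0.084), which prenylates transfer RNA. The TRIT1 call was lost with library-size scaling (adjusted p 0.0547) and with replicates 1 and 2 summed (0.071), in a range of 5.26e-11 to 0.071. With knockout 6 of the 14 rose and 4 fell (all genes 17.6% and 20.2%), with RABGGTB (-0.37 ± 0.053) and FNTA (-0.24 ± 0.047), subunits of prenyltransferases, lower and the methyltransferase ICMT (0.30 ± 0.044) higher. The median log2 fold change of the branch genes on overexpression was -0.24, beside -1.50 for the 20 synthesis enzymes.

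Of 20 further genes of cholesterol uptake, transport and storage, 18 were tested on overexpression, and 7 rose and 6 fell (all genes 26.4% and 23.9%). Among those that rose, GRAMD1C entered the test only through its overexpression libraries, so a difference was built into its entering the test. It had 12, 23 and 22 counts there, against 6, 1 and 5 counts in the vector libraries. STARD5, a sterol-binding protein, rose (2.18 ± 0.14), as did the lysosomal membrane protein SCARB2 (1.15 ± 0.12), and TMEM97, a partner of NPC1, fell (-1.16 ± 0.11). With knockout 5 of 17 rose and 5 fell (all genes 17.6% and 20.2%). VLDLR, a lipoprotein receptor that MYLIP can remove, was at 13.5, 18.1 and 14.9 CPM in the JMJD3 knockout libraries, against 53.8, 50.3 and 54.3 CPM in the parental libraries (-1.76 ± 0.085). LRPAP1, a chaperone of such receptors, rose (0.44 ± 0.046), and the oxysterol-binding protein OSBPL2 fell (-0.37 ± 0.064), a call lost on log2(FPKM + 1) values (adjusted p 0.13 by limma, in a range of 6.97e-07 to 0.13). Of 7 oxysterol and side-chain enzymes only HSD3B7, a bile acid enzyme, could be tested. It rose on overexpression, at 3.42, 3.1 and 3.13 CPM in the overexpression libraries, against 0.947, 0.574 and 0.626 CPM in the vector libraries (2.18 ± 0.20), and did not pass with knockout.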

How the data were processed

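Messenger RNA of 12 HL-60 libraries was sequenced, with 3 libraries in each of 4 groups, and each comparison had its own deposited table. The tools named in the submitters' processing notes are RSEM, TopHat2 2.0.4, edgeR and CASAVA 1.8, with genome GRCh38. No source used here ties a column to a tool. The deposited count columns hold expected counts that the authors had multiplied by 1 factor per library (0.772 to 1.197, read from the values). Divided by it, low values (up to 1000) came out whole, within 0.02, in 92.91 to 94.09% of cases. The recovered expected counts were rounded before testing. FPKM values (fragments per kilobase of transcript, scaled to sequencing depth) are those deposited by the authors, and were used to compare levels between genes. The authors' deposited table also gives log2 fold changes with p-values and false discovery rates, which are quoted only where named. Left out were 13 entries without values on the overexpression side.

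Each table was tested separately with edgeR 4.0.16 in R 4.3.3 (TMM factors, filterByExpr with a minimum count of 10, robust quasi-likelihood test, Benjamini-Hochberg adjustment over all genes tested, adjusted p under 0.05). Every adjusted p in the text is from this test unless another is named. The code was tested on simulated counts. Alternatives were other scalings, no filter, the counts as deposited, DESeq2 1.42.0, limma 3.58.1 on log2(FPKM + 1), a replicate block and omitted libraries. An overexpression library's deviations from its group mean correlated with those of the vector library of the same number at 0.199, 0.238 and 0.553. Across numbers, overexpression replicate 1 correlated with vector replicate 2 at 0.255, and overexpression replicate 2 with vector replicate 1 at 0.203. The data therefore matched replicate 3 of both groups but did not pair replicates 1 and 2 by number. For replicates 1 and 2 the replicate block rests on the numbers alone. Its adjusted p-values hold only if the numbers mark pairs, which the labels do not state. Blocked values are given where they change a call.

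The genes and lists were chosen with earlier results of these data known. All 34 genes are accounted for. Values of every library are given for the largest change in each role group, the genes with opposite calls, the LXR targets and the regulators. From other lists up to 3 genes by smallest p are named, and others where a limit or a comparison called for them. Some genes of these lists are not reported here. Positions of genes are from the GENCODE 29 annotation in the deposited tables' build. SE values are from the fits and take in the spread between libraries, and SD values are over 3 libraries. The floor for ABCG1 covers counting error in the vector group only.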

Additional observations from a re-analysis of the deposited data

How the results depend on the processing

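On overexpression, 18 to 23 of the 34 genes fell under every alternative run, and with knockout 10 to 15 rose. The count that rose on overexpression, 4 by the main test, was 7 with library-size scaling, 7 with the replicate block, 7 with replicates 1 and 2 only and 2 with those replicates summed, and 2 to 7 with 1 library left out. The count that fell with knockout, 5 by the main test, was 3 with the replicate block, 3 by limma on log2(FPKM + 1) and 3 to 5 with 1 library left out. Over all genes, 3421 fell on overexpression, against 2202 with library-size scaling, which called 4788 higher. Upper-quartile scaling called 4389 higher and 2660 lower. The replicate block gave 5274 lower, and replicates 1 and 2 summed gave 1689. With knockout 2860 genes fell, against 1563 by limma on log2(FPKM + 1). The knockout and parental libraries of the same number did not deviate together (correlations 0.036, -0.12 and -0.069), so the block there pairs numbers only.

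Signs turned only in genes that did not pass. On overexpression library-size scaling gave TM7SF2 0.0013, SCAP 0.069 and NPC1 0.040, and upper-quartile scaling gave SCAP 0.012. With knockout ACAT2 was -0.0094 with library-size scaling, -0.0021 with upper-quartile scaling, -0.0092 with no filter, -0.0015 with the replicate block and -0.0019 by limma, and -0.037 to 0.072 with 1 library left out. FDPS was -0.0060 with library-size scaling, -0.0058 with no filter and -0.012 by limma, and -0.021 to 0.051 with 1 library left out. LSS was -0.024 to 0.042 and SREBF1 -0.023 to 0.079 with 1 library left out. The cause of these changes was not tested. Values of single genes under the alternatives kept direction and call in 472 cases on overexpression (17 gained the call, 35 lost it, 4 changed sign) and in 399 with knockout (6, 23 and 20). Low counts limit ABCA1, ABCG1 and, with knockout, SOAT1.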
